A study of Mus musculus with 31 samples.

Results

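The genes described here are 44 interferon-stimulated genes of the mouse, listed by symbol and found on the array by the gene name that the scanner files give for each probe. Of the 44 genes, 43 had at least 1 probe in the deposited table, 68 probes in all, among 23968 gene names and 36059 probes whose spots stood out from the background, and Oas3 was the gene without one. Liver RNA of C57BL6/J male mice was hybridized to one-colour microarrays, 1 array per mouse, after 24 hours without food followed by 18 hours of refeeding, during which the water held 20% glucose. All 31 mice had that treatment, and their age is not given. ChREBPβ-deficient mice (n = 8) were made by genome editing that removes exon 1b of Mlxipl, the gene of the glucose-sensing transcription factor ChREBP, and were compared with WT littermates of their line (n = 8). Total ChREBP-KO mice (n = 7) lack both isoforms and were compared with WT littermates of their own line (n = 8). Both deletions are carried by the whole animal, so the liver is not the only tissue affected. Values are log2 of the spot signal after normalization over all arrays, a gene with several probes is represented by its brightest one, and each p-value compares mice.

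Interferons are secreted proteins that warn cells of viruses and other microbes. They bind receptors on the cell surface, receptor-bound kinases activate STAT proteins, and STAT and IRF factors then switch on a shared set of genes, the interferon-stimulated genes. In the liver these genes are active in hepatocytes as well as in Kupffer cells, and a low level of their RNA is present without infection.

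Mlxipl, the targeted gene, was read first as a check of the labels. For its brightest probe, A_55_P2119957, on chromosome 5 of mouse build mm9, the log2 signal had a lowest, median and highest value of 14.88, 15.06 and 15.33 in WT littermates of the ChREBPβ line and of 14.40, 14.64 and 14.84 in ChREBPβ-deficient mice. The corresponding values were 15.14, 15.25 and 15.48 in WT littermates of the total line and 13.89, 14.11 and 14.30 in total ChREBP-KO mice. In each line every mutant mouse lay below every WT littermate, and the total ChREBP-KO mice were the lowest of all. The differences were -0.45 (adjusted p = 0.015) and -1.16 (adjusted p = 8.1e-13). Of the other probes, A_55_P2728555 was called lower in total ChREBP-KO mice only (-0.46, adjusted p = 0.91, and -0.59, adjusted p = 0.0031), and A_55_P2045158 did not pass the test in either line (-0.06 and -0.05). In the ChREBPβ line the stretch that the authors targeted around exon 1b is too short to hold all of these probes. Which of them, if any, lie in a deleted stretch is not known here. They therefore check the labels only as far as the first probe separates the groups. The tissue was checked against hepatocyte markers, and all 8 were well above background on every array. Alb was at 18.96 on all arrays, the value that normalization gives to the brightest probe, and Ttr had a median of 17.83 in WT littermates of the total line and 17.96 in total ChREBP-KO mice.

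In the liver of total ChREBP-KO mice, most interferon-stimulated genes were lower than in WT littermates, while in ChREBPβ-deficient mice none was called. Dhx58, Xaf1 and Ifi44 had the largest decreases in total ChREBP-KO mice, and Ifitm3, Parp9 and Parp14 were the genes for which no total ChREBP-KO mouse reached any WT littermate. Irf1, Isg20, Cxcl10 and Trim30a were the measured members with a positive difference, and none of them passed the test. In total ChREBP-KO mice 29 of the 43 members (67.4%) passed as lower with limma (adjusted p under 0.05), where 14.8% of all genes did. As higher, 0 members passed, where 14.4% of all genes did. Without adjustment, limma gave 31 members lower and 0 higher at p under 0.05, beside 4529 lower and 4640 higher of all 23968 genes. The exact Mann-Whitney test with adjustment gave 14 members lower and 0 higher, beside 11.9% and 10.6% of all genes. The median log2 difference of the 43 genes was -0.51, with a range from -1.39 to 0.30, against a median of 0.01 over all genes. The median of the members was -0.20 with 8 called lower among the arrays of scan day 1, and -0.71 with 34 among those of scan day 2. Whole liver was measured, so fewer cells of a type and less RNA per cell cannot be told apart. For the 3 genes whose groups did not overlap, the same held for 4.45% of all genes in the lower direction. In the higher direction, 0 members and 3.30% of all genes were separated in this way.

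**Figure D1:**
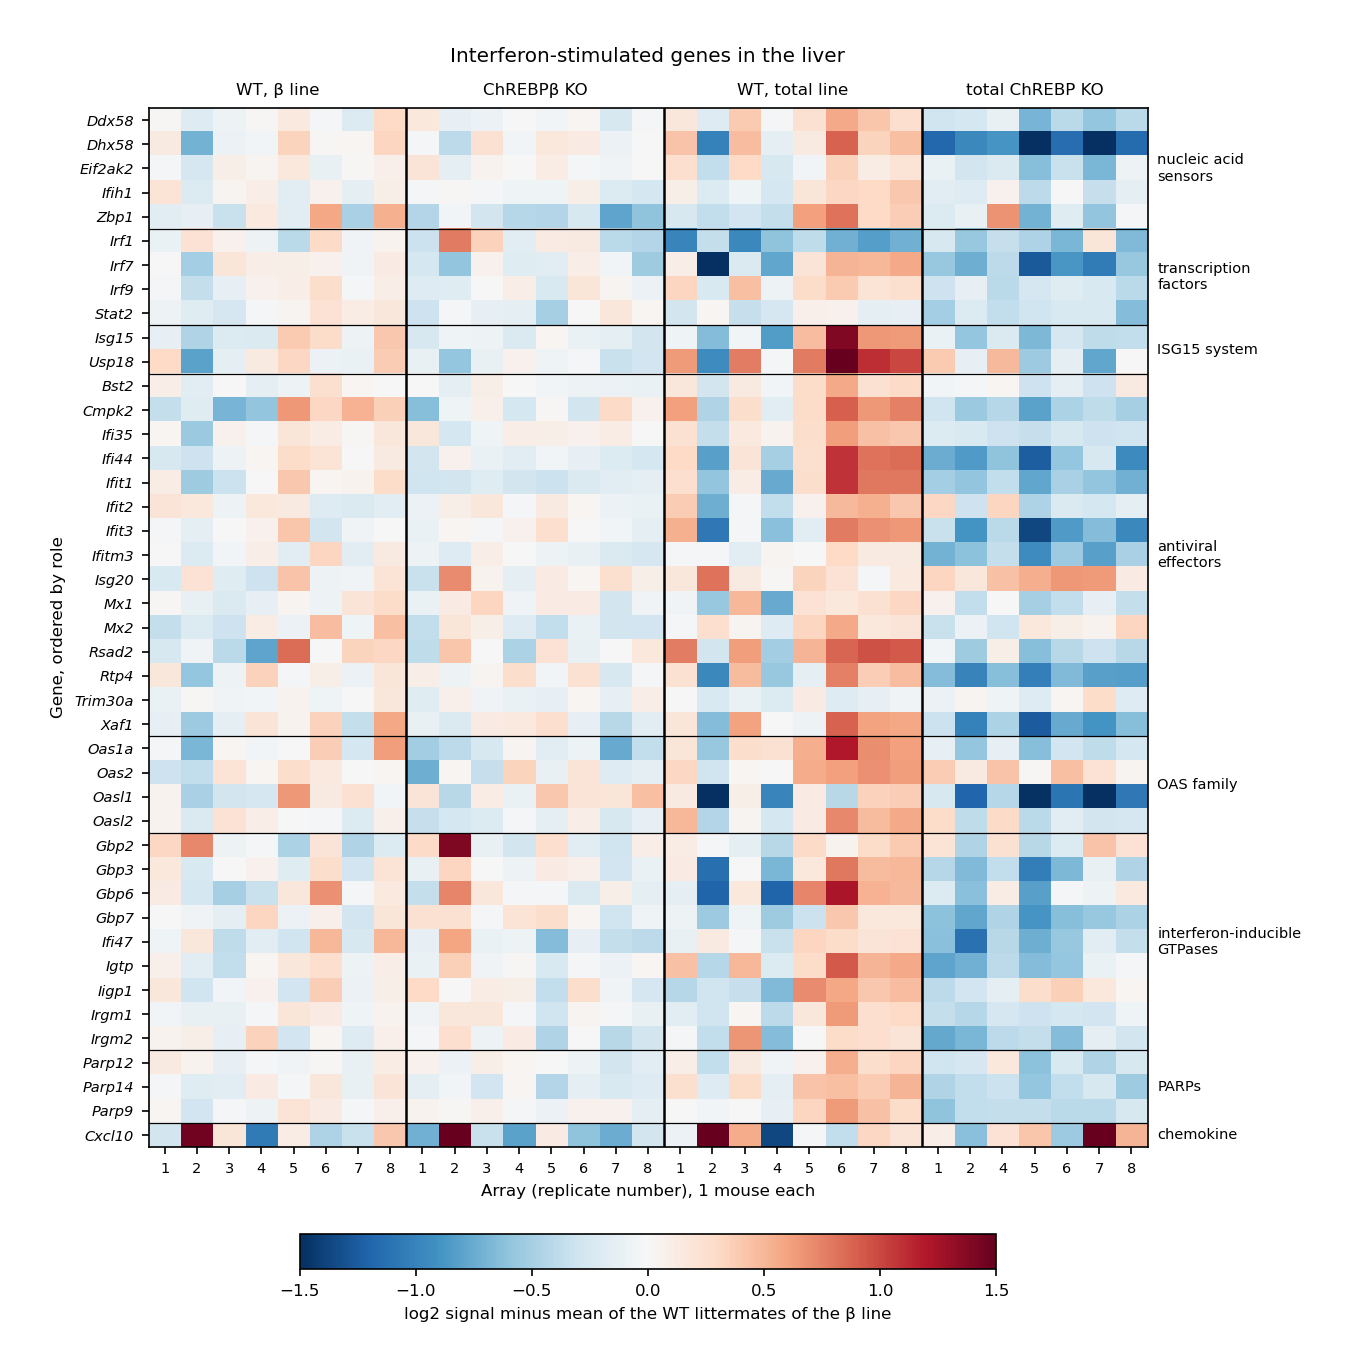
Log2 signal of the 43 measured interferon-stimulated genes (rows, ordered by role) in each of the 31 arrays (columns, by replicate number), minus the mean of the WT littermates of the ChREBPβ line, with colours capped at the ends of the scale. Most genes are blue in total ChREBP-KO mice and in replicates 2 and 4 of their WT littermates, and red in replicates 5 to 8 of those littermates.

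Among the sensors of foreign nucleic acid, 4 of 5 passed as lower in the total line. Dhx58 encodes LGP2, a helicase that binds viral double-stranded RNA and tunes the other RNA sensors. Its probe A_52_P223809 lies at chr11:100556271-100556330 (mm9). Its log2 signal was 7.98 at the lowest, 9.37 at the median and 9.88 at the highest in WT littermates of the total line, and 7.43, 7.84 and 8.11 in total ChREBP-KO mice. All total ChREBP-KO mice were below the WT median, and a single WT mouse, replicate 2, fell within their range. Dhx58 thus fell 2.63-fold, a log2 difference of -1.39 with a standard error of 0.18 (95% confidence interval -1.76 to -1.02, adjusted p = 6.1e-07). In the ChREBPβ line Dhx58 was 8.28, 9.01 and 9.33 in WT littermates and 8.60, 8.98 and 9.22 in ChREBPβ-deficient mice, which overlapped almost entirely (-0.01).

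Ddx58 encodes RIG-I, the helicase that recognizes viral RNA with an uncapped end and signals through MAVS. In WT littermates of the total line its lowest, median and highest values were 10.82, 11.26 and 11.59, and in total ChREBP-KO mice they were 10.32, 10.62 and 10.91. Replicate 2 of the WT littermates lay among the total ChREBP-KO mice, and the other WT mice were above them all. Ddx58 fell by 0.62 on the log2 scale (standard error 0.10, adjusted p = 9.2e-06), and all 4 of its probes were called lower. Eif2ak2, the kinase PKR that stops translation when it meets double-stranded RNA, fell by 0.40 (adjusted p = 0.0022). Ifih1, which encodes the RNA sensor MDA5, fell by 0.26 (adjusted p = 0.027), with 3 WT littermates inside the range of the total ChREBP-KO mice. Zbp1, a sensor of left-handed nucleic acid that can trigger cell death, differed by -0.27 for its brighter probe (adjusted p = 0.33) and by -0.70 for its dimmer probe A_66_P139683 (adjusted p = 0.0073).

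Of the 4 transcription factors of the list, 2 were called lower. Irf9, the DNA-binding subunit of the complex that type I interferon assembles with STAT2, ranged from 11.11 to 11.78 (median 11.59) in WT littermates of the total line and from 10.93 to 11.21 (median 11.08) in total ChREBP-KO mice. A single WT littermate lay below the highest total ChREBP-KO mouse, and the fall was 0.47 (standard error 0.09, adjusted p = 1.5e-04). Irf7, the factor that amplifies production of type I interferon, was 11.10, 12.79 and 13.21 in the WT littermates and 11.38, 11.90 and 12.24 in total ChREBP-KO mice. Replicates 2 and 4 of the WT littermates did not exceed the highest mutant, and replicates 6 to 8 were the highest of the 31 arrays. Irf7 differed by -0.70 (standard error 0.22, adjusted p = 0.014). Stat2, another subunit of that complex, did not pass the test (-0.23, adjusted p = 0.055). Irf1, a factor induced early by interferon-γ, had values of 11.07, 11.34 and 11.70 in WT littermates and 11.37, 11.60 and 12.24 in total ChREBP-KO mice. Here all 7 total ChREBP-KO mice lay above the WT median, with overlapping ranges (0.30, adjusted p = 0.15).

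Both genes of the ISG15 system were called lower. Isg15 encodes a small protein that is attached to other proteins in the manner of ubiquitin, and Usp18 removes it again and also dampens signalling by the type I interferon receptor. Isg15 had values of 11.10, 12.15 and 13.33 in WT littermates of the total line and of 11.27, 11.57 and 11.84 in total ChREBP-KO mice (-0.56, standard error 0.21, adjusted p = 0.041). Usp18 had values of 7.98, 9.69 and 10.67 in the WT littermates and of 8.14, 8.80 and 9.41 in total ChREBP-KO mice (-0.74, standard error 0.25, adjusted p = 0.027). For both genes the lowest mouse of the line was a WT littermate, replicate 4 for Isg15 and replicate 2 for Usp18, and the spread among WT littermates was wider than among the mutants. The call of Usp18 was lost when any of 5 single arrays was left out, with differences of -0.58 without WT replicate 6, -0.67 without WT replicate 7, -0.68 without WT replicate 8, -0.66 without mutant replicate 5 and -0.62 without mutant replicate 7. It was also lost with the slide as a fixed block (-0.62, adjusted p = 0.17), in a separate fit of the line (adjusted p = 0.096), with the exact Mann-Whitney test (adjusted p = 0.12) and on scan day 1 alone (-0.06, adjusted p = 0.94).

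Of the 15 antiviral effectors, 10 were called lower and none higher, with a median difference of -0.69. Ifitm3, a membrane protein that keeps enveloped viruses from fusing with the cell, was the brightest member, with a probe (A_55_P2762554) at chr7:148195489-148195548 (mm9). Its log2 signal was 15.40, 15.59 and 15.87 in WT littermates of the total line and 14.63, 14.95 and 15.21 in total ChREBP-KO mice. The groups did not overlap, and replicates 2 and 4 of the WT littermates, low for many other members, lay with their group. Ifitm3 fell by 0.69 with a standard error of 0.08 (95% confidence interval -0.86 to -0.52, adjusted p = 1.3e-07). In the ChREBPβ line Ifitm3 was 15.37, 15.55 and 15.89 in WT littermates and 15.32, 15.47 and 15.67 in ChREBPβ-deficient mice, with overlapping ranges (-0.11).

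Xaf1 encodes a binding partner of the apoptosis inhibitor XIAP. It ranged from 8.09 to 9.63 (median 9.12) in WT littermates of the total line and from 7.49 to 8.42 (median 7.98) in total ChREBP-KO mice. Only replicate 2 of the WT littermates was within the range of the mutants, and Xaf1 fell by 1.03 (standard error 0.18, adjusted p = 5.4e-05). Ifi44, a cytoplasmic protein of the interferon response, had values of 6.55, 7.64 and 8.45 in the WT littermates and of 6.13, 6.62 and 7.13 in total ChREBP-KO mice. Replicates 2 and 4 of the WT littermates overlapped with the mutants, and both probes of Ifi44 were called lower (brighter probe -1.02, standard error 0.19, adjusted p = 1.3e-04). Rtp4, a receptor-transporting protein with antiviral activity, ranged from 9.85 to 11.57 in the WT littermates and from 9.78 to 10.17 in total ChREBP-KO mice, and fell by 0.88 (standard error 0.17, adjusted p = 2.2e-04). Its 7 total ChREBP-KO mice lay close together, and replicate 2 of the WT littermates lay among them.

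The IFIT proteins grip viral RNA that lacks the marks of host RNA, and 2 of the 3 measured genes were called lower. Ifit3 had a median of 9.61 and a highest value of 10.14 in WT littermates of the total line, and a median of 8.51 and a highest value of 9.03 in total ChREBP-KO mice (-0.87, standard error 0.20, adjusted p = 0.0011). Ifit1 ranged from 6.48 to 8.32 in the WT littermates and from 6.46 to 6.87 in total ChREBP-KO mice (-0.82, adjusted p = 0.0011). For both genes the low WT mice were replicates 2 and 4, and the remaining 6 were above every mutant. Ifit2 did not pass the test (-0.20, adjusted p = 0.32). The neighbouring genes Rsad2, whose product viperin makes a nucleotide that stops viral polymerases, and Cmpk2, a mitochondrial nucleotide kinase, lie on chromosome 12 and fell by 0.80 (adjusted p = 0.0046) and 0.84 (adjusted p = 0.0012). Ifi35 fell by 0.50 (adjusted p = 4.3e-04) and Bst2, the tetherin that holds budding virus at the cell surface, by 0.26 (adjusted p = 0.02). The Mx GTPases, which block incoming viral particles, did not pass the test, with -0.24 for Mx1 and -0.18 for Mx2. Isg20, an RNA-digesting enzyme, differed by 0.19 (adjusted p = 0.30), with 6 of 7 total ChREBP-KO mice above the WT median. Trim30a, a ubiquitin ligase of the TRIM family, depended on the probe, since its brightest one gave 0.07 and was not called while A_52_P442567 gave -0.39 (adjusted p = 0.006) and A_55_P2734707 gave -0.32 (adjusted p = 0.016).

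**Figure D2:**
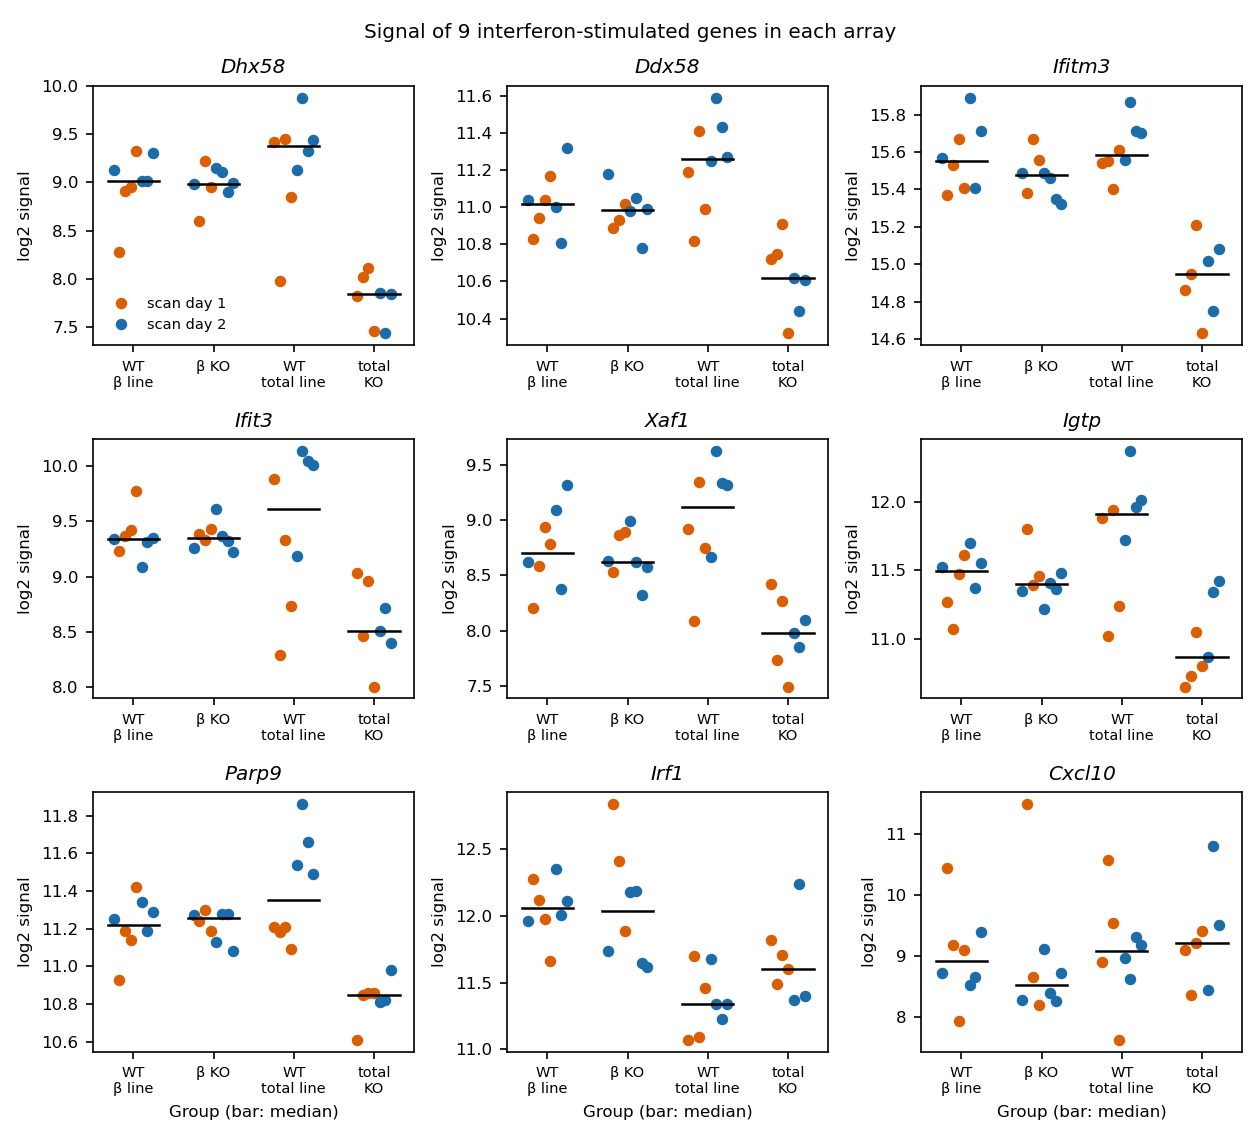
Log2 signal (vertical axis) of 9 interferon-stimulated genes in each mouse, by group, with bars at the median and colours for the day of scanning. Dhx58, Ddx58, Ifitm3, Ifit3, Xaf1, Igtp and Parp9 are lowest in total ChREBP-KO mice, whereas Irf1 is lower in both groups of the total line and Cxcl10 varies most between single mice.

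The OAS enzymes make short chains of adenylate that activate the RNA-cutting enzyme RNase L, and the OASL proteins are their relatives. Of the 4 measured genes of the family, 2 were called lower. Oas1a ranged from 9.56 to 11.33 (median 10.54) in WT littermates of the total line and from 9.49 to 10.01 (median 9.84) in total ChREBP-KO mice. Replicate 2 of the WT littermates was again among the mutants, and the other 7 lay above them (-0.74, standard error 0.18, adjusted p = 0.0021). Oasl1, which restrains translation of Irf7, was called lower with both of its probes (brighter probe -0.76, standard error 0.25, adjusted p = 0.023), with 3 WT littermates below the highest mutant. On scan day 1 alone its brighter probe was not called (-0.20, adjusted p = 0.80), and on scan day 2 it was (-1.40). Oasl2 (-0.34, adjusted p = 0.055) and Oas2 (-0.08, adjusted p = 0.73) did not pass the test.

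Interferon-inducible GTPases attack the vacuoles in which microbes hide, and 6 of the 9 members of the list were called lower. Igtp, also called Irgm3, had values of 11.02, 11.91 and 12.37 in WT littermates of the total line and of 10.65, 10.87 and 11.42 in total ChREBP-KO mice. Replicates 2 and 4 of the WT littermates were within the range of the mutants, and Igtp fell by 0.79 (standard error 0.15, adjusted p = 1.2e-04). Its relatives Ifi47, Irgm2 and Irgm1, which lie with it on chromosome 11, fell by 0.66, 0.51 and 0.35 (adjusted p = 0.0017, 0.0072 and 0.011). Of the guanylate-binding proteins, Gbp3 fell by 0.56 (adjusted p = 0.023) and Gbp7 by 0.53 (adjusted p = 8.3e-04). Gbp2 (-0.06), Gbp6 (-0.29) and Iigp1 (-0.06) did not pass the test, and the ranges of the groups overlapped for all 3. Gbp6 spread from 6.94 to 9.37 in the WT littermates, with replicates 2 and 4 lowest, and all 7 total ChREBP-KO mice lay below the WT median.

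All 3 genes of the PARP family, enzymes that attach ADP-ribose to other proteins or bind it, were called lower. Parp9 had values of 11.09, 11.35 and 11.86 in WT littermates of the total line and of 10.61, 10.85 and 10.98 in total ChREBP-KO mice. Parp14 had values of 10.63, 11.15 and 11.33 against 10.25, 10.46 and 10.58. For both genes every total ChREBP-KO mouse lay below every WT littermate. The falls were 0.58 for Parp9 (standard error 0.09, adjusted p = 7.3e-06) and 0.65 for Parp14 (standard error 0.09, adjusted p = 2.3e-06), and Parp12 fell by 0.40 (adjusted p = 0.0023). These values are of the brightest probes, and Parp9 and Parp12 each had a dimmer probe that was not called. Cxcl10, the only chemokine of the list and a signal that draws T cells, had values of 7.62, 9.07 and 10.57 in WT littermates and of 8.36, 9.21 and 10.79 in total ChREBP-KO mice. The ranges overlapped (0.17, adjusted p = 0.81), and the sign turned when single arrays were left out, with -0.04 without WT replicate 4 and -0.09 without mutant replicate 7.

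Several members were read by more than 1 probe, and their probes were compared. Of the 19 genes with several probes, 9 passed as lower in the total line with every probe, among them Ddx58, Irf7, Irf9, Rsad2 and Parp14. Another 5, Parp9, Parp12, Ifih1, Zbp1 and Trim30a, were called with some of their probes. For Zbp1 and Trim30a the brightest probe was not called. For Parp9, Parp12 and Ifih1 the brightest probe was called and a dimmer one was not. The dimmer probe of Ifih1, A_55_P2738674, gave -0.12 (limma, adjusted p = 0.39). The remaining 5, Iigp1, Isg20, Irf1, Stat2 and Mx1, were called with none.

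In ChREBPβ-deficient mice, the comparison that asks whether the β isoform alone affects these genes, no interferon-stimulated gene was called against WT littermates. The largest negative differences were those of Zbp1 (-0.41), Oas1a (-0.31) and Ifit1 (-0.23), and the largest positive ones were those of Gbp2 (0.15), Oasl1 (0.13) and Isg20 (0.10). The positive ones depended on single arrays, with ranges from -0.03 to 0.25 for Gbp2, from 0.06 to 0.22 for Oasl1 and from 0.01 to 0.16 for Isg20 when each array was left out. With limma 0 of 43 genes were called higher and 0 lower, where 0% of all genes were called higher and 0.00417% lower, the latter being Mlxipl. At an unadjusted p under 0.05, 0 members were higher and 2 lower, Zbp1 and Parp14, beside 586 higher and 627 lower of all 23968 genes. The exact Mann-Whitney test with adjustment called 0 members in either direction, beside 0% of all genes in either direction. It did not call Mlxipl either (adjusted p = 0.48), so its result says little about the members. The median difference was -0.05 and the smallest adjusted p was 0.99. Within scan day 1 the median was 0.05, with 28 of 43 genes above 0, and within scan day 2 it was -0.15, with 35 below 0, and none was called on either day. Zbp1 had values of 8.15, 8.49 and 9.21 in WT littermates and of 7.84, 8.20 and 8.59 in ChREBPβ-deficient mice, so 7 of 8 mutants lay below the WT median within overlapping ranges (unadjusted p = 0.038 from limma, adjusted p = 0.99). For Oas1a the values were 9.45, 10.12 and 10.76 against 9.38, 9.83 and 10.17, with 7 of 8 below the WT median. For Dhx58, Ifitm3 and Parp9 the 95% confidence intervals ran from -0.36 to 0.35, from -0.27 to 0.05 and from -0.17 to 0.17, so each excluded a fall as large as the estimate in total ChREBP-KO mice.

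**Figure D3:**
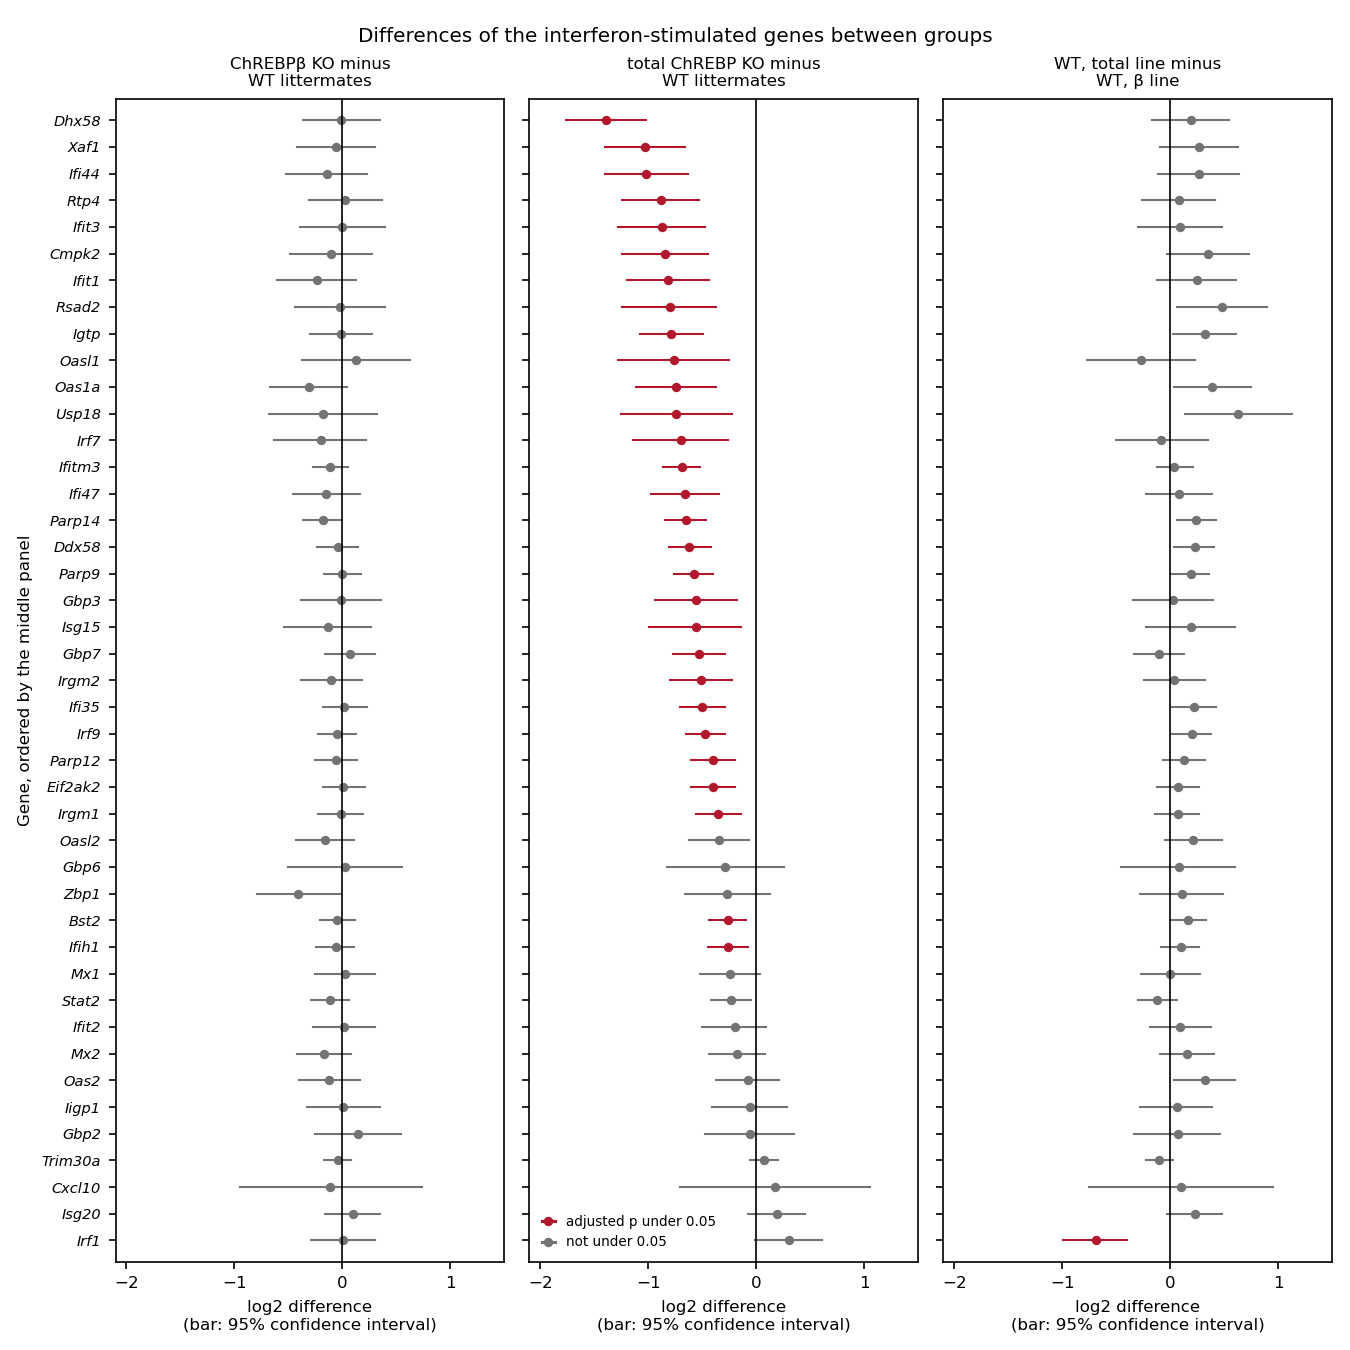
Log2 difference (horizontal axis) of each measured interferon-stimulated gene between groups, with 95% confidence intervals from limma, in red where the adjusted p was under 0.05. In total ChREBP-KO mice 29 genes are red and to the left of 0, in ChREBPβ-deficient mice none is red, and between the WT littermates of the lines Irf1 is.

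The effects of the 2 deficiencies were then compared directly, by subtracting the difference measured in the ChREBPβ line from that measured in the total line. Dhx58 (-1.39, standard error 0.25, adjusted p = 2.3e-04), Ifitm3 (-0.58, standard error 0.11, adjusted p = 5.3e-04) and Parp9 (-0.58, standard error 0.12, adjusted p = 0.0012) had the smallest adjusted p. Of the 43 members, 14 (32.6%) were lower in this comparison, where 8.25% of all genes were, and 0 were higher, where 7.09% of all genes were. At an unadjusted p under 0.05 the members numbered 22 lower and 0 higher with limma, beside 3330 lower and 3350 higher of all 23968 genes, and the Mann-Whitney test was not applied to this comparison. The number of lower genes was 7 with the slide as a fixed block. On scan day 1 alone it was 1, Ifitm3, where 2.62% of all genes were lower. Dhx58 (-1.12, adjusted p = 0.17) and Parp9 (-0.45, adjusted p = 0.085) did not pass on that day. On scan day 2 alone the number was 17, where 3.81% of all genes were lower. The 14 genes also included Xaf1, Rtp4, Ifit3, Ifi44, Igtp, Gbp7, Ddx58, Ifi35, Parp14, Irf9 and Eif2ak2. The other 15 genes called in total ChREBP-KO mice, among them Isg15, Usp18, Irf7, Ifit1 and Rsad2, were not shown to respond differently in the lines. The median difference of effects was -0.43 over the members and 0.01 over all genes.

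WT littermates of the lines were compared with each other to see how far 2 sets of unmutated livers differ for these genes. Irf1 was lower in WT littermates of the total line, with 11.07, 11.34 and 11.70 against 11.66, 12.06 and 12.35. Only replicates 2 and 5 of the total line reached the lowest mouse of the ChREBPβ line, and the difference was -0.69 (standard error 0.15, adjusted p = 0.0013). With the slide as a fixed block the call was lost (-0.47, adjusted p = 0.20). For Irf1 both groups of the total line had lower medians than both groups of the ChREBPβ line. With limma 1 of 43 members was lower, where 9.36% of all genes were, and 0 were higher, where 7.79% of all genes were. Without adjustment 10 members were higher and 1 lower at p under 0.05, beside 3607 higher and 3767 lower of all 23968 genes. The exact Mann-Whitney test with adjustment called 0 members higher and 1 lower, beside 4.42% and 6.13% of all genes. The largest positive differences were those of Usp18 (0.63, adjusted p = 0.071), Rsad2 (0.48, adjusted p = 0.11) and Oas1a (0.39, adjusted p = 0.12), and the median was 0.11, with 37 of 43 genes above 0. Usp18 had values of 8.12, 8.94 and 9.30 in WT littermates of the ChREBPβ line and of 7.98, 9.69 and 10.67 in those of the total line. The latter group thus held both the lowest and the highest mice. This comparison uses the same WT arrays as the comparisons with the mutants, so a low or high WT mouse enters both. For Dhx58 the WT littermates differed by 0.19 and the total ChREBP-KO mice from theirs by -1.39, and for Ifitm3 these values were 0.04 and -0.69. For Rsad2 they were 0.48 and -0.80.

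The number of members called higher between the WT littermates depended on single arrays and ran from 0 to 10 when each of the 31 arrays was left out in turn. It was 10 without replicate 2 of the WT littermates of the total line, among them Usp18 (0.86, adjusted p = 0.0034), where 8% of all genes were higher. Without replicate 4, Usp18 passed as well (0.73, adjusted p = 0.046).

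Array by array, the interferon-stimulated genes varied together, and the WT littermates of the total line spread far more than the other groups. The mean of the 43 genes, relative to the WT littermates of the ChREBPβ line, had a lowest, median and highest value of -0.18, -0.03 and 0.19 in those littermates and of -0.17, -0.06 and 0.10 in ChREBPβ-deficient mice. It was -0.42, 0.18 and 0.56 in WT littermates of the total line and -0.59, -0.32 and -0.16 in total ChREBP-KO mice. The standard deviation was 0.35 among WT littermates of the total line and 0.13, 0.09 and 0.14 in the other groups, in the same order. Replicates 2 and 4 of those WT littermates, at -0.42 and -0.37, lay among the total ChREBP-KO mice, with 38 and 37 of the 43 genes below the reference. Replicates 6, 7 and 8 lay at 0.56, 0.37 and 0.39, with 39, 39 and 40 genes above it.

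**Figure D4:**
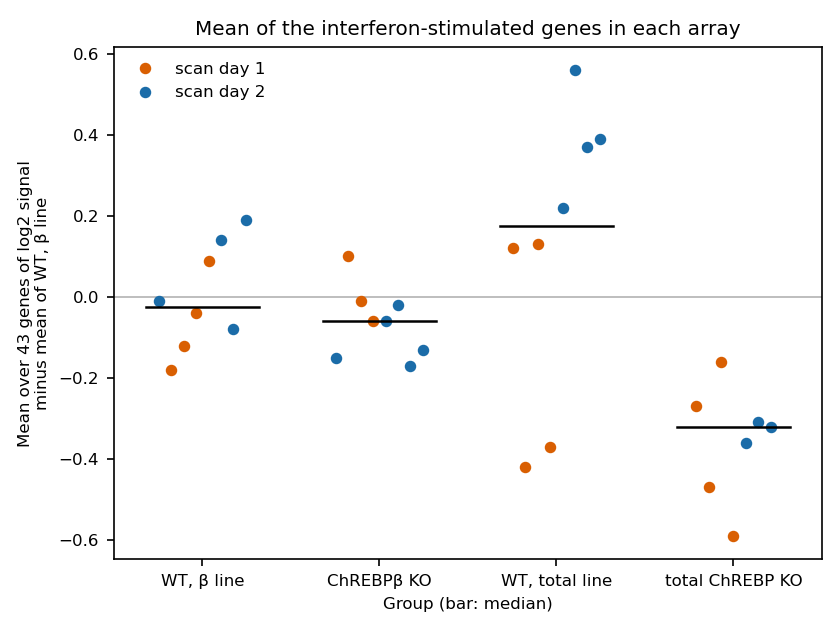
Mean over the 43 genes of the log2 signal minus the mean of the WT littermates of the ChREBPβ line (vertical axis), 1 point per mouse, with bars at the group median and colours for the day of scanning. WT littermates of the total line span -0.42 to 0.56, and their 4 arrays of scan day 2 lie above their 4 arrays of scan day 1.

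The arrays were scanned on 2 days, each with mice of all groups, and lay on 15 slides. Among WT littermates of the total line, the 4 arrays of scan day 2 had a mean of 0.39 and the 4 of scan day 1 a mean of -0.14, with 41 of the 43 genes higher on day 2 by a median of 0.47. The total ChREBP-KO mice had means of -0.33 on day 2 and -0.37 on day 1, and their genes differed between days by a median of 0.01. Within scan day 1 the median difference of the members between total ChREBP-KO mice and WT littermates was -0.20, with 8 genes called lower, where 8.55% of all genes were. Within scan day 2 it was -0.71, with 34 genes called lower, where 7.68% of all genes were. Dhx58 passed on both days (-1.07 and -1.74), as did Ifitm3 (-0.61 and -0.76), Parp9 (-0.38 and -0.77), Parp14 (-0.47 and -0.83), Igtp (-0.71 and -0.80), Ddx58 (-0.43 and -0.83), Xaf1 (-0.80 and -1.26) and Ifi47 (-0.65 and -0.62), and no other member passed on day 1. Others were near 0 on day 1 and low on day 2, such as Isg15 (0.01 and -1.12), Usp18 (-0.06 and -1.47) and Irf7 (-0.13 and -1.28). With the scan day as a block in the fit, 29 members passed as lower in the total line and the median difference was -0.50. With the slide as a fixed block the number was 22, and the median was -0.43. As a random block the slide gave 30. Shares of all genes are not given for these blocks.

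For 4 slides that held a total ChREBP-KO mouse beside a WT littermate of its line, the pairs could be read on the same slide. Dhx58 differed by -1.03, -0.52, -2.04 and -2.01 on slides 1, 3, 6 and 9, and Ifitm3 by -0.75, -0.93, -0.78 and -0.95. Parp9 differed by -0.48, -0.32, -0.88 and -0.67. These 3 genes, which had the smallest adjusted p in the comparison of effects, were lower in the mutant on every such slide. For Ifitm3 and Parp9 that sign was fixed in advance, since every total ChREBP-KO mouse lay below every WT littermate. It is therefore no separate support, and only the sizes are read here. The median over the members was 0.09, -0.18, -0.84 and -0.73, and the WT mice on slides 1 and 3 were replicates 4 and 2. In the ChREBPβ line the same reading on slides 2, 5, 7 and 12 gave medians of -0.04, -0.06, -0.17 and 0.02. Dhx58 differed there by 0.27, -0.73, 0.14 and -0.02, Ifitm3 by 0.00, -0.04, -0.40 and -0.11, and Parp9 by 0.17, -0.18, -0.21 and 0.03. The part of the scan day in these differences was not tested beyond these values.

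Within groups, read together over all 31 arrays, most members varied together from mouse to mouse. WT littermates of the total line spread most (standard deviation 0.35 of the mean of the members), and correlations for single groups are not given. After the group means were removed, the correlation of a gene with the mean of the other members had a median of 0.73 over the 31 arrays and exceeded 0.5 for 34 of the 43 genes, a description of mice that share groups, slides and scan days. It was highest for Isg15 and Gbp3, both at 0.92, and also high for Ifi44 and Gbp6, both at 0.91. It was near 0 for Irf1 (0.00), Isg20 (-0.10) and Cxcl10 (-0.04). Cxcl10 had the largest standard deviation within groups, 0.88, followed by Gbp6 at 0.55 and Usp18 at 0.52. Outside the lists examined here, the named genes most like the mean of the members were Gm9706 (r = 0.91), Rnf213 (0.84), Oas1f (0.81), Zc3hav1 (0.76), Gm11127 (0.71), H2-Q8 and H2-L (both 0.70) and Samhd1 (0.69). Rnf213, a large ubiquitin ligase, had values of 10.81, 11.65 and 11.84 in WT littermates of the total line and of 10.36, 10.56 and 10.68 in total ChREBP-KO mice, without overlap. It fell by 0.97 (adjusted p = 4.3e-08).

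The rest of the interferon pathway was taken from a list of 41 further genes, of which 34 were measured. The list had a median difference of -0.04 in total ChREBP-KO mice, and none of its genes was called in ChREBPβ-deficient mice. Higher in total ChREBP-KO mice were 3 of the 34, where 14.4% of all genes were, and the lower ones made up no larger a share than the 14.8% of all genes. Lower in total ChREBP-KO mice were Jak1, the kinase bound to interferon receptors (-0.28, adjusted p = 1.4e-04), Ikbke, a kinase that activates IRF factors (-0.46), Irf2 (-0.39) and Nlrc5, the activator of MHC class I genes (-0.47, adjusted p = 1.0e-03). The receptor genes Ifngr1 (0.50, adjusted p = 2.7e-04), Ifnar1 (0.14) and Ifnlr1 (0.70, adjusted p = 0.01) were higher. The RNA of interferons themselves was dim: Ifna1, Ifna2, Ifna5, Ifnk and Ifnl3 were measured and none was called, while Ifnb1, Ifna4, Ifne, Ifng and Ifnl2 had no probe that passed the filter.

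A second list held 45 other interferon-stimulated genes, 41 of them measured, of which 16 were lower and 1, Gbp5, was higher in total ChREBP-KO mice, beside 14.8% and 14.4% of all genes. Ddx60, a helicase that assists RIG-I, had values of 5.79, 6.38 and 6.96 in WT littermates of the total line and of 5.53, 5.65 and 5.80 in total ChREBP-KO mice, which met only at the edge, and fell by 0.73 (adjusted p = 3.5e-05). Tor3a fell by 0.91 (adjusted p = 1.1e-04), Lgals3bp by 0.61 (adjusted p = 3.2e-04) and Cxcl9, a chemokine typical of interferon-γ, by 0.91 (adjusted p = 0.016). Nmi, which binds STAT proteins and the product of Ifi35, fell by 0.50 (adjusted p = 3.9e-06), and Dtx3l, the partner of PARP9, by 0.38 (adjusted p = 0.0029). The median of the list was -0.14.

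Antigen presentation, which interferons also raise, split by class. Of 16 measured genes of a list of 17, 7 were lower and 5 higher in total ChREBP-KO mice, beside 14.8% and 14.4% of all genes. The lower genes belong to the class I route that shows peptides from inside the cell: Tap1 (-0.58, adjusted p = 1.5e-04) and Tap2 (-0.57, adjusted p = 5.6e-09) carry peptides, Psmb8 (-0.51), Psmb9 (-0.50) and Psmb10 (-0.29) are subunits of the immunoproteasome, and H2-K1 (-0.40) and H2-D1 (-0.31) present the peptides. Tap2 had values of 11.53, 11.78 and 11.84 in WT littermates and of 11.08, 11.17 and 11.42 in total ChREBP-KO mice, which did not overlap. The higher genes belong to class II, which antigen-presenting cells use: H2-Ab1 (0.60, adjusted p = 0.023), H2-Eb1 (0.71, adjusted p = 0.0092), H2-Aa (0.58), Cd74 (0.56) and Ciita (0.50), the regulator of the class. B2m, the light chain of class I molecules, did not pass the test (0.06).

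Markers of the cell types of the liver were read beside these results. None of the 11 Kupffer cell and macrophage markers was called in total ChREBP-KO mice, and their median difference was 0.09. Their summed signal, led by Cd5l, was 13708, 19502 and 26921 in WT littermates of the total line and 16508, 19256 and 24446 in total ChREBP-KO mice, so the groups overlapped. Among measured markers of other cells, 0 of 8 for T and NK cells, 0 of 4 for B cells, 0 of 4 for plasmacytoid dendritic cells, 0 of 5 for neutrophils and 0 of 6 for sinusoidal endothelial cells were called. Of 8 hepatocyte markers, Cps1 (0.44), Cyp2e1 (0.69) and Ttr (0.17) were higher. Their summed signal, led by Alb, was 1459111, 1522518 and 1549024 in the WT littermates and 1653493, 1697623 and 1726205 in total ChREBP-KO mice, without overlap. Of 6 stellate cell markers, Dcn (0.40) and Reln (0.80) were higher, with a sum, led by Dcn, of 16089, 20337 and 22859 against 20731, 24228 and 38843. Of 5 cholangiocyte markers Epcam (0.97) was higher, with a sum led by Spp1 of 2893, 4019 and 5868 against 3290, 4526 and 12089. Car3, 1 of 5 measured adipocyte markers and also abundant in liver, was higher (0.79), and led a sum of 76186, 105863 and 135340 against 156709, 169005 and 201356. All measured markers were well above background on every array except Cd79a of B cells and Cfd of adipocytes. The part of these markers in the result was not tested.

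RNA of exocrine pancreas was present on some arrays of the total line. Of 4 measured markers of a list of 8, Ctrb1 (-0.77, adjusted p = 0.046) and Cel (-0.80, adjusted p = 0.048) were lower in total ChREBP-KO mice. The summed signal, led by Cela2a, was 1030, 1543 and 18045 in WT littermates of the total line and 1119, 2146 and 3379 in total ChREBP-KO mice, against 752, 992 and 1113 in WT littermates of the ChREBPβ line and 732, 884 and 1052 in ChREBPβ-deficient mice. Replicates 2, 7 and 8 of the WT littermates of the total line carried the most, and of these replicate 2 was low and replicates 7 and 8 were high for the interferon-stimulated genes. Between the WT littermates Cela2a (2.13, adjusted p = 0.0025) and Ctrb1 (0.84) were higher in the total line. Neutrophil markers S100a8 (0.79), S100a9 (1.02) and Retnlg (0.56), 3 of 5 measured, were higher there too, with a summed signal led by S100a9 of 1380, 2046 and 4070 against 759, 1333 and 2874. Without the 3 arrays with the most pancreatic signal, 27 members passed as lower in the total line and the median was -0.54. The part of pancreatic and neutrophil RNA in the results was not tested beyond this.

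Members that vary together were also read at the level of sequence, in windows from 250 bases before to 50 bases after the start of each gene, taken from RefSeq (GRCm38.p6). Windows were found for 33 of the 44 genes, all but Dhx58, Zbp1, Usp18, Mx1, Mx2, Rtp4, Oas2, Gbp6, Iigp1, Parp9 and Parp14. The patterns of 2 binding sites were searched on both strands. The core of the interferon-stimulated response element (ISRE) is GAAANNGAAA and is bound by the complex that contains STAT2 and IRF9, and the core of the interferon-γ-activated site (GAS) is TTCNNNGAA. The ISRE core was in 20 of 33 members (60.6%) and in 3.99% of 27025 genes, and the GAS core in 11 (33.3%) and in 9.55% of genes. Among members called lower in total ChREBP-KO mice the ISRE core was in 15 of 24 (62.5%), and among those measured and not called in 4 of 8 (50%). For the GAS core these numbers were 8 of 24 (33.3%) and 3 of 8 (37.5%). Both cores were in the windows of Eif2ak2, Bst2, Ifitm3, Oas1a, Gbp7, Irgm2 and Igtp, and neither was in those of Irf7, Irf9, Cmpk2, Ifi44, Xaf1, Oasl1, Oasl2, Ifi47 and Parp12. A match is a description of the letters and not evidence of a bound site.

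The following stretches near the start show these patterns in genes that fell (Ifit1, Ifit3, Isg15, Rsad2 and Igtp) and in genes that were not called (Cxcl10 and Irf1), on the strand of the gene and with the matches of both cores in capitals. In Ifit1, Ifit3 and Rsad2 the ISRE core lies on the opposite strand. Ifit1 and Ifit3 have 2 matches each, and Isg15 has 3 overlapping matches. Igtp has a GAS core before its ISRE core, and Irf1 has a GAS core and no ISRE core in its window. The stretches lie at chr19:34640757-34640841 (plus strand), chr19:34583345-34583444 (plus), chr4:156200847-156200924 (minus), chr12:26456535-26456600 (minus), chr11:58199494-58199555 (plus), chr5:92349065-92349130 (minus) and chr11:53769896-53769960 (plus) of GRCm38.p6, in the order given.
Ifit1: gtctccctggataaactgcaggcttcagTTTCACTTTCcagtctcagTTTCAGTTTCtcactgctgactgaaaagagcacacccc
Ifit3: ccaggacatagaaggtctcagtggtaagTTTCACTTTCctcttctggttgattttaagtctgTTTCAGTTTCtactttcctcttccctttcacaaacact
Isg15: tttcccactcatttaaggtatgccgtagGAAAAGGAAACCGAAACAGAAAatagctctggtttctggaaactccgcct
Rsad2: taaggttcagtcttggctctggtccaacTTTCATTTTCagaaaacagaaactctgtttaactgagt
Igtp: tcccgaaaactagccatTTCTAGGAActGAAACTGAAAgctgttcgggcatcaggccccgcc
Cxcl10: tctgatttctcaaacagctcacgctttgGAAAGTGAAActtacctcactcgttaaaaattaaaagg
Irf1: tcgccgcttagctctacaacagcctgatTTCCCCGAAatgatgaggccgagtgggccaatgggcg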

How the data were processed

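RNA of 31 mouse livers was measured on one-colour Agilent arrays, 1 array per mouse. The intensity of each spot is its median pixel brightness, as deposited by the authors from Agilent Feature Extraction 10.10.1.1. The deposited table holds log2 values that the authors made by quantile normalization over the arrays and a median over spots of the same probe name. For the values given here the scanner files were read again, spots were kept that the scanner software marked as found, positive and significant, and well above background, all 3 at once, on 26 or more arrays, or on 6 or more of 1 group, and log2 of the median signal was quantile normalized. Against the deposited table, 1116976 of 1117717 values lay within 0.1. The 4 groups were fitted together with limma 3.58.1 in R 4.3.3, and p-values were adjusted by Benjamini-Hochberg over 36059 probes, with a threshold of 0.05. With 7 or 8 arrays per group, the precision of a difference is given by its standard error. The probe with the highest mean represents its gene, and counts over all genes follow the same rule.

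Named for each comparison were the members called, up to the 10 with the smallest p, the 3 highest and the 3 lowest differences, the 3 members with the largest spread within groups, Mlxipl and called genes of the lists. Other members, and probes of a gene beside its brightest, were named after their values were seen. The members and the lists were chosen with earlier results of these data known. Alternatives covered scaling, background correction, filters, the deposited table, slide, scan day, replicate number, separate fits, variance settings, 1 probe per gene, the exact Mann-Whitney test and leaving out each array. Scan days alone and the removal of 3 arrays with pancreatic RNA were chosen after seeing the data. Other tools were the R package data.table (version 1.17.8), Python 3.11.15 for promoters and matplotlib 3.10.9 for plots. The fit was tested on simulated data.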

Additional observations from a re-analysis of the deposited data

Results flagged for a closer look

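Dixon's test was run in each group for 25 genes, the mean of the members and the summed exocrine pancreas markers, 108 cases in all. Single mice stood apart from their group in 8 of the 108, all of them for single genes. Chance gives about 1 in 20 for independent cases, and most of these genes vary together, so that rate is only a rough guide. In WT littermates of the ChREBPβ line, replicate 2 was lowest for Dhx58 (8.28, next 8.91, gap 0.60 of the range), Rtp4 (10.23, next 10.72, gap 0.53), Ifi35 (12.49, next 13.02, gap 0.73) and Usp18 (8.12, next 8.79, gap 0.57). In ChREBPβ-deficient mice, replicate 2 was highest for Cxcl10 (11.48, next 9.11, gap 0.72), Gbp2 (9.59, next 8.48, gap 0.65) and Igtp (11.80, next 11.48, gap 0.55). In WT littermates of the total line, replicate 2 was highest for Isg20 (10.53, next 10.05, gap 0.57). All 8 were thus replicate 2, in 3 groups, and replicate 2 was also the highest for Cxcl10 in WT littermates of the ChREBPβ line (10.44) and of the total line (10.57). Why the same number recurs was not tested.

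The effect of the total deficiency differed from that of the ChREBPβ deficiency, by a limma test of the difference itself, for 14 genes: Dhx58 (-1.39), Xaf1 (-0.97), Rtp4 (-0.91), Ifit3 (-0.88), Ifi44 (-0.88), Igtp (-0.78), Gbp7 (-0.60), Ifitm3 (-0.58), Parp9 (-0.58), Ddx58 (-0.58), Ifi35 (-0.52), Parp14 (-0.47), Irf9 (-0.43) and Eif2ak2 (-0.42). The number was 7 with the slide as a fixed block. It was 1, Ifitm3, on scan day 1 alone (2.62% of all genes) and 17 on scan day 2 alone (3.81% of all genes). A second probe of Cxcl10, A_55_P2016459, was left out because its spot had all 3 marks of the scanner software (found, positive and significant, well above background) on only 5 of the 7 arrays of total ChREBP-KO mice. It was well above background on 6 of these 7 arrays and on 1 array of each other group, with a median of 5.13 in total ChREBP-KO mice and 4.41 in their WT littermates.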

How the results depend on the processing

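In total ChREBP-KO mice, 29 interferon-stimulated genes were called lower (14.8% of all genes), and 14 with the exact Mann-Whitney test (11.9% of all genes). The number was 8 on scan day 1 alone (8.55%) and 23 to 32 when any array was left out (13.5% to 15.1%). None was called higher under any alternative, where 14.4% of all genes were in the main fit. The median difference was -0.51, with -0.20 on scan day 1 and -0.71 on scan day 2, fewer arrays each. For the difference between the effects 14 were lower (8.25% of all genes), 7 with the slide as a fixed block and 12 to 21 without single arrays (7.46% to 8.9%). The number was 1 on scan day 1 (2.62% of all genes) and 17 on scan day 2 (3.81% of all genes). Between the WT littermates 0 were higher (7.79% of all genes), but 11 on scan day 2 (1.63%) and 0 to 10 without single arrays (5.6% to 8.56%). The number was 1 with the scan day as a block, 2 with the replicate block (paired by number) and 2 without the 3 arrays rich in pancreatic RNA. For blocks and for the removal of these 3 arrays, shares of all genes are not given here. The number called lower, Irf1 alone, went from 1 to 0 with the slide as a fixed block (-0.47, adjusted p = 0.20). The median went from 0.11 to 0.22 with that block, -0.05 on scan day 1 and 0.34 on scan day 2. Replicate numbers were not taken as pairs, since correlations within numbers were not over 0.1 throughout (-0.16 to 0.53 in the ChREBPβ line, -0.21 to 0.24 in the total line, -0.09 to 0.36 between WT littermates), with 3 of 8, 1 of 7 and 2 of 8 mice best with their own number. In ChREBPβ-deficient mice none was called under any alternative. Mlxipl (-0.45) missed the threshold with the slide as a fixed block (-0.52), the replicate block (-0.45), a separate fit (-0.45), the Mann-Whitney test (-0.45), scan day 1 (-0.30) and scan day 2 (-0.57). It ranged from -0.49 to -0.42 without single arrays, where WT replicates 6 and 7 and mutant replicates 5 and 6 each cost the call (adjusted p = 0.063, 0.068, 0.062 and 0.065). The sign turned for Cxcl10 in total ChREBP-KO mice on scan day 1 (-0.14) and within -0.09 to 0.38 without single arrays (-0.04 without WT replicate 4). On scan day 1, 11 of 43 members were above 0 there, among them Gbp6 (0.21), Zbp1 (0.23), Ifit2 (0.15), Oas2 (0.23) and Iigp1 (0.29), negative over all arrays. The sign also turned for the difference between effects of Cxcl10 (slide as a fixed block -0.03, scan day 1 -0.43), Irf1 (scan day 1 -0.04) and Zbp1 (slide as a fixed block -0.16, scan day 2 -0.17). It turned for Oasl1 between WT littermates on scan day 2 (0.01), and in ChREBPβ-deficient mice for Oasl1 on scan day 1 (-0.05) and Gbp2 without mutant replicate 2 (-0.03). None of these values passed the test. The causes were not tested. Scan days alone and the array removal for pancreatic RNA were chosen after seeing the data. All 43 probes that stand for the genes were well above background on every array, and 28 of 2108 member spots were not.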
